A study of Mus musculus with 76 samples.

Results

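Tubulin is the protein of which microtubules are built. Alpha-tubulin and beta-tubulin are each made from a family of separate genes, and the products join as a heterodimer that adds to microtubule ends. Cells adjust tubulin output in part by degrading tubulin mRNA when free dimers are plentiful, a loop in which the factor TTC5 recognises the nascent protein. In lung, microtubules serve every cell type, and the motile cilia of airway cells are built on them. Here 8 tubulin genes were followed over time in alveolar septa, the thin walls between air spaces. They comprised the alpha genes Tuba1a, Tuba1b and Tuba1c and the beta genes Tubb2a, Tubb2b, Tubb3, Tubb5 and Tubb6, which are 8 of the 20710 genes measured. They were taken by symbol, with the probe of highest mean over all 76 arrays for each gene, and all 8 were measured. They were chosen by their log2 difference between 8 and 3 months in control and smoke-exposed mice, so the values of that difference in either tissue are given as a description and are not tested. The choice set no threshold on the values.

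Expression was measured on 76 single-colour arrays from 40 mice, 39 of septa and 37 of vessels, both microdissected from lung. The 16 groups combined Noxo1 knockout (C57BL/6-Noxo1(tm1881_17.2Arte)) or wild-type genotype, cigarette smoke or control housing, 8 or 3 months, and septa or vessels, with 4 or 5 arrays each. Noxo1 encodes an organiser subunit of the NADPH oxidase NOX1. Exposure began in week 12 of life at 140 mg of particles per m3 and took 6 hours on each of 5 days per week, so in smoke-exposed mice the length of exposure and age cannot be told apart, and in control mice 8 against 3 months compares older with younger animals. Pooling genotypes, smoke-exposed septa gave 10 arrays at 8 months and 10 at 3 months, and control septa gave 10 at 8 months and 9 at 3 months. Smoke-exposed vessels gave 8 and 10 replicates at 8 and 3 months, and control vessels 10 and 8, after the arrays carrying mouse number 25 were averaged. The labels give neither the sex of the mice nor whether dissected material was pooled. RNA was amplified as a whole, so a level is relative to the other genes on the array, and fewer cells of a type cannot be told apart from less RNA per cell.

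As a check of the labels, Noxo1 averaged 2.42 ± 0.67 log2 units in 20 knockout septa arrays and 3.72 ± 1.27 in 19 wild-type septa arrays (SD). The difference of -1.31 ± 0.32 (SE) did not pass adjustment over all genes (limma, adjusted p = 1), and both means lay below 3.99, the 95th percentile of 1324 odorant and vomeronasal receptor genes, which serve here as a dim level. The smooth muscle genes Acta2 and Myh11 were higher in vessels than in septa by 6.17 ± 0.16 and 6.14 ± 0.23. Ager, a marker of type 1 pneumocytes, was lower in vessels, with a difference of -2.80 ± 0.32, while Sftpc of type 2 pneumocytes averaged 14.22 in vessels against 15.11 in septa, high in both. Xist and the Y-linked genes gave a female pattern in 7 of 10 smoke-exposed septa arrays at 8 months and in 4 of 10 at 3 months, and in 1 of 10 control septa arrays at 8 months and 3 of 9 at 3 months, so the sexes were unevenly spread. In 4 mice, numbered 7, 10, 29 and 34, septa and vessels gave different sex patterns. Leaving these mice out gave a median of the 8 genes of -0.22 in control septa.

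In control septa, 7 of the 8 tubulin genes were lower at 8 than at 3 months, with a median difference of -0.35 log2 units, against 0.03 over all genes. The gap was widest for the beta genes Tubb2b and Tubb2a and for the alpha gene Tuba1b. Of all genes, 0.478% passed adjustment in this comparison, from which nothing is read about these genes, since it chose them. Of the 8, Tubb6 alone was above 0.

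Tuba1b encodes a widely expressed alpha-tubulin. In control septa its log2 signal ran from 12.75 through a median of 13.11 to 13.52 at 8 months (n = 10), against 13.33, 13.76 and 14.09 at 3 months (n = 9). Of the 10 arrays at 8 months, 8 lay below the lowest array at 3 months, and the groups overlapped through the other two. The difference was -0.62 ± 0.11 (SE, 95% interval -0.85 to -0.39), or 1.54-fold lower at 8 months. It was similar in both genotypes, at -0.66 ± 0.16 in knockout and -0.58 ± 0.17 in wild-type septa. A second probe for Tuba1b did not show this: it gave -0.06 in smoke-exposed septa and 0.12 in control septa, and followed the first over the 39 septa arrays with a Pearson r of only 0.19. The second probe was the dimmer, with a mean of 9.50 against 13.47 in septa. With the mean of both probes the difference in control septa was -0.25. Alpha-tubulin genes are similar in coding sequence, and the probe sequences were not given. A probe may therefore also take up RNA of its paralogs, which was not tested.

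Tubb2a encodes a beta-tubulin known best from neurons, where it is abundant. In knockout control septa its log2 signal was 10.51, 9.99, 10.19, 9.12 and 10.50 at 8 months, against 11.46, 11.50, 11.21, 11.50 and 11.70 at 3 months. In wild-type control septa it was 10.85, 10.51, 10.97, 10.63 and 9.77 at 8 months, against 11.93, 11.78, 10.68 and 11.37 at 3 months. Every knockout array at 8 months was below every knockout array at 3 months, while the wild-type groups overlapped because of 1 low array at 3 months. How many of all genes separate in this way was not counted. The difference over both genotypes was -1.15 ± 0.22 (95% interval -1.59 to -0.71), 2.23-fold lower at 8 months. By genotype it was -1.41 ± 0.30 in knockout and -0.89 ± 0.32 in wild-type septa.

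Tubb2b, the neighbour of Tubb2a on chromosome 13 with no protein-coding gene between them in the RefSeq annotation, encodes a beta-tubulin required in migrating neurons. In control septa it ran from 3.66 through 6.39 to 8.31 at 8 months, against 6.90, 8.02 and 8.61 at 3 months. Of 10 arrays at 8 months, 7 lay below the lowest at 3 months, and the spread was wider at 8 months, with an SD of 1.37 against 0.55. The difference was -1.81 ± 0.56 (95% interval -2.94 to -0.67), 3.50-fold lower. Its second probe also gave a lower value, -1.09, and followed the first with r = 0.77. The Tubb2a and Tubb2b probes may likewise share target RNA, which was not tested.

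**Figure D1:**
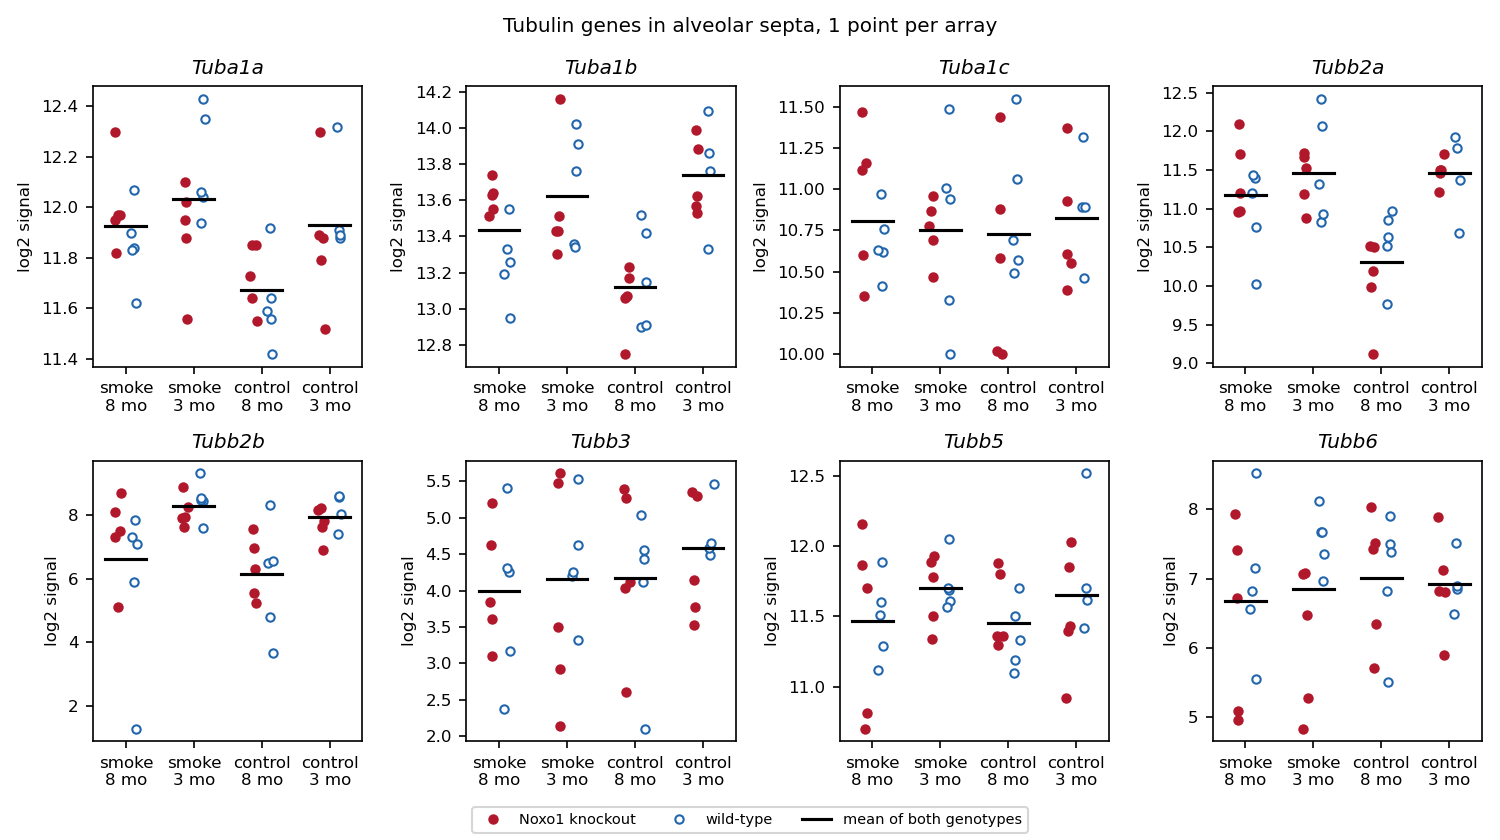
Log2 signal (vertical axis, scaled per gene) of the 8 tubulin genes in alveolar septa, 1 point per array; filled red points are Noxo1 knockout and open blue points wild-type arrays, and bars are means over both genotypes. In smoke-exposed septa the 8-month arrays of Tubb2b sit mostly below those at 3 months, with 1 wild-type array at 1.28, and in control septa this holds for Tuba1b, Tubb2a and Tubb2b.

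The other 5 genes differed less. Tuba1a, the alpha-tubulin of developing neurons that is also made in lung, ran from 11.42 through 11.64 to 11.92 at 8 months in control septa, against 11.52, 11.89 and 12.32 at 3 months. Its difference was -0.26 ± 0.11, and its second probe gave -0.23. Tubb3, a beta-tubulin used as a marker of neurons, was dim, with a mean of 4.22 in septa and 26 of 39 arrays above the receptor level, and its difference was -0.44 ± 0.49. Tubb5, the beta-tubulin of most dividing cells, differed by -0.22 ± 0.17, and Tuba1c by -0.10 ± 0.19. Tubb6, a beta-tubulin found in many non-neuronal cells, differed by 0.09 ± 0.41. Without mice 7, 10, 29 and 34 the values were -0.18 for Tubb3 and 0.14 for Tuba1c, and the sign of Tubb6 also changed without single arrays. For the last 4 genes the 95% interval spanned 0, and the groups overlapped widely.

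In smoke-exposed septa the 8 genes had a median time difference of -0.18 against 0.01 over all genes, and 7 of 8 below 0. By genotype, the median was -0.45 in wild-type mice, with 8 of 8 below 0. In knockout mice it was 0.07, with 3 of 8 below 0. The difference between genotypes within smoke-exposed septa was not tested. The signs of Tuba1c and Tubb3 changed under other settings or without single arrays. The share of all genes past adjustment was 0.695%. Tuba1b ran from 12.95 through 13.53 to 13.74 at 8 months, against 13.30, 13.47 and 14.16 at 3 months, a difference of -0.19 ± 0.11, which was -0.12 with the mean of both probes and -0.11 without knockout replicate 4 at 3 months. The medians were in the opposite order to the means, which were 13.43 at 8 months and 13.62 at 3 months. Tubb2a ran from 10.03 through 11.20 to 12.10 at 8 months, against 10.82, 11.42 and 12.42 at 3 months, a difference of -0.28 ± 0.21. Without wild-type replicate 3 it was -0.16 (at 8 months) or -0.17 (at 3 months). These ranges overlapped over most of their width. Tubb2b ran from 1.28 through 7.32 to 8.70 at 8 months, against 7.58, 8.35 and 9.31 at 3 months. Its difference was -1.68 ± 0.54, and -1.11 without wild-type replicate 3 at 8 months, the array at 1.28, which lies below the receptor level. The remaining 5 genes differed by between -0.24 ± 0.16 (Tubb5) and 0.06 ± 0.19 (Tuba1c).

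The time difference in smoke-exposed septa minus that in control septa was 0.87 ± 0.30 for Tubb2a (95% interval 0.26 to 1.49) and 0.43 ± 0.16 for Tuba1b (0.11 to 0.75). For Tubb2b it was 0.13 ± 0.78 (-1.45 to 1.70), an interval too wide to place the exposures apart or together. These are descriptions, since both time differences belong to the comparison that chose the genes. In order of mean signal, Tubb2a stood at 11.46 ± 0.36 in control septa at 3 months, 11.45 ± 0.53 in smoke-exposed septa at 3 months, 11.18 ± 0.56 in smoke-exposed septa at 8 months and 10.30 ± 0.55 in control septa at 8 months (SD). The first 3 of these lay within 1 SD of each other, and control septa at 8 months stood apart. Tuba1b kept the same order, with 13.74 ± 0.24, 13.62 ± 0.32, 13.43 ± 0.24 and 13.12 ± 0.23, where the first 3 lay within 1 SD of their neighbours and the last lay slightly more than 1 SD below the one before it. For Tubb2b both 8-month groups, at 6.61 ± 2.14 with smoke and 6.14 ± 1.37 without, lay below both 3-month groups, at 8.30 ± 0.55 with smoke and 7.92 ± 0.55 without.

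The time differences in septa were also taken within each genotype. In knockout smoke-exposed septa, Tubb2a differed over time by -0.01 ± 0.30, Tuba1b by 0.05 ± 0.16 and Tubb2b by -0.78 ± 0.77. In wild-type smoke-exposed septa the values were -0.55 ± 0.30 for Tubb2a, -0.42 ± 0.16 for Tuba1b and -2.58 ± 0.77 for Tubb2b, the last resting in part on the array at 1.28. In control septa Tubb2b gave -1.43 ± 0.77 in knockout and -2.19 ± 0.82 in wild-type mice. Averaged over exposures, the time difference of knockout minus that of wild-type septa was above 0 for all 8 genes, from 0.01 ± 0.30 for Tubb2a to 1.28 ± 0.78 for Tubb2b. Of these, Tuba1a gave 0.32 ± 0.15 (95% interval 0.02 to 0.62), and the intervals of the other 7 spanned 0.

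In control vessels 7 of the 8 genes were higher at 8 than at 3 months, with a median of 0.30 against 0.02 over all genes, of which 0.00483% passed adjustment. Tubb2a ran from 7.24 through 10.84 to 11.84 at 8 months (n = 10), against 6.97, 9.91 and 10.51 at 3 months (n = 8), a difference of 0.93 ± 0.55, or 0.59 without wild-type replicate 3 at 3 months. Tuba1b ran from 12.85 through 13.46 to 13.93 at 8 months, against 12.95, 13.26 and 13.40 at 3 months, a difference of 0.25 ± 0.13, or 0.58 with the mean of both probes. Tubb3 and Tubb5 changed sign under other settings or without single arrays. Arrays of vessels were more variable, with a median residual SD over genes of 0.98 against 0.738 in septa, and the ranges overlapped for all 8 genes. The time difference in control septa minus that in control vessels was -0.85 ± 0.17 for Tuba1b (95% interval -1.19 to -0.52), -2.06 ± 0.58 for Tubb2a (-3.23 to -0.90) and -2.51 ± 1.12 for Tubb2b (-4.75 to -0.27). It was below 0 for all 8 genes.

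In smoke-exposed vessels the median over time was -0.12 against 0.03 over all genes, of which 0.188% passed adjustment. The widest gap was for Tubb6, which ran from 7.59 through 8.27 to 9.92 at 8 months (n = 8), against 7.88, 9.34 and 10.48 at 3 months (n = 10), a difference of -0.76 ± 0.34, or -0.49 with sex pattern as a covariate. Tuba1c differed by -0.39 ± 0.16 and Tuba1b by -0.23 ± 0.13. For Tuba1b the mean of both probes gave 0.33, so its sign depends on the probe. Tubb2a differed by -0.01 ± 0.55 and Tubb2b by -0.53 ± 0.98. The Tubb2b value was -1.21 with sex pattern as a covariate and 0.11 without wild-type replicate 2 at 8 months. Under other settings or without single arrays 5 of the 8 genes changed sign, namely Tuba1b, Tubb2a, Tubb2b, Tubb3 and Tubb5. The time difference in smoke-exposed minus control vessels was -1.25 ± 0.48 for Tubb6, -0.56 ± 0.23 for Tuba1c and -0.48 ± 0.18 for Tuba1b. A female pattern was seen in 6 of 8 smoke-exposed vessel arrays at 8 months and in 3 of 10 at 3 months.

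**Figure D2:**
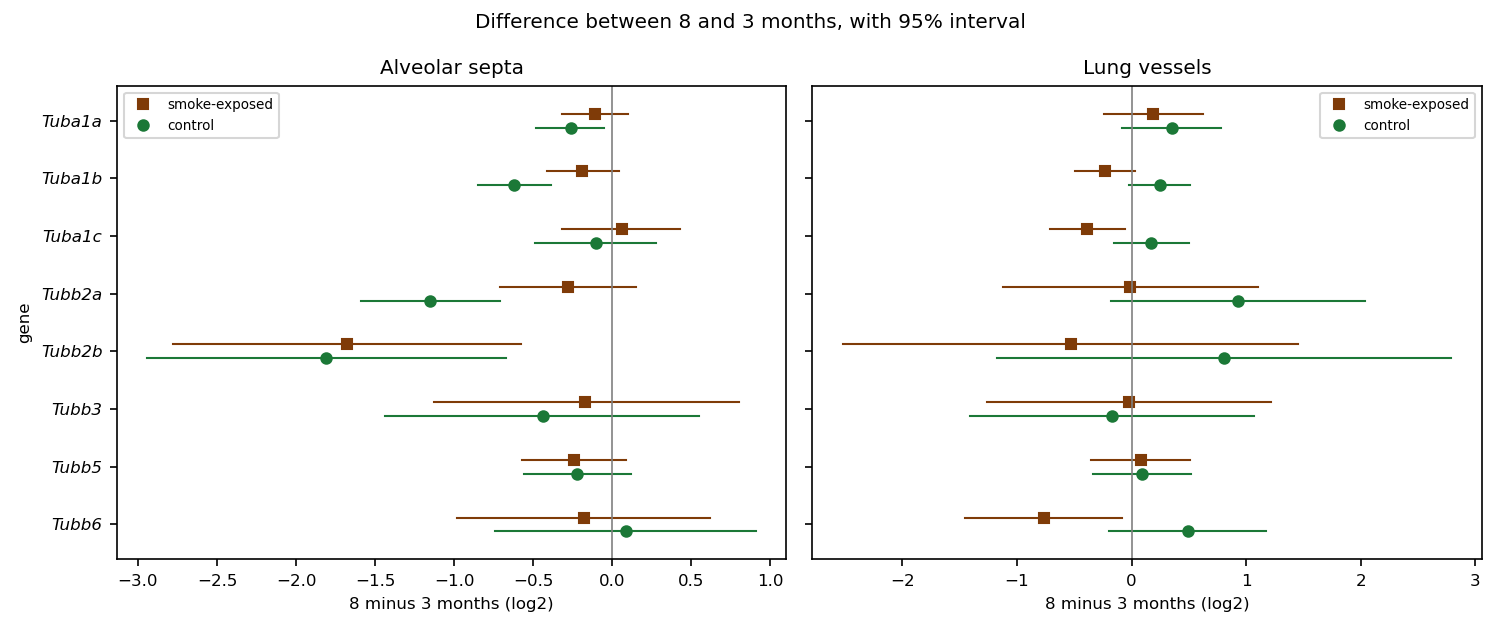
Difference between 8 and 3 months (log2, horizontal axis) for each gene in septa (left) and vessels (right), with 95% intervals from limma; brown squares are smoke-exposed and green circles control mice. Tuba1b and Tubb2a each have their own lowest value in control septa, at -0.62 and -1.15. Tubb2b is lower still in septa, at -1.68 with smoke and -1.81 without, and 7 of 8 genes lie right of 0 in control vessels.

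Tissue was compared over both times together. Vessels against septa moved 6 of the 8 past an adjusted p of 0.05, 3 higher and 3 lower in vessels, where 12.7% of all genes were higher, 16.2% lower and 28.9% passed in either direction (limma over 76 arrays with mouse as a random block). Tubb6 was higher in vessels by 2.29 ± 0.19 (limma, adjusted p = 7.5e-17), with values from 7.20 through 9.28 to 10.98 in vessels against 4.83, 6.96 and 8.52 in septa. Tubb3 was higher by 2.26 ± 0.27 (adjusted p = 2.05e-10), with values from 3.53 through 6.38 to 10.27 in vessels against 2.10, 4.26 and 5.61 in septa. Tuba1c was higher by 0.90 ± 0.09 (adjusted p = 1.12e-13). The ranges of the 2 tissues overlapped for each of these genes.

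Tubb2a was lower in vessels, with a difference of -1.46 ± 0.21 (limma, adjusted p = 1.86e-08), with values from 6.82 through 9.83 to 11.84 in vessels against 9.12, 11.20 and 12.42 in septa. Tubb2b was also lower, with a difference of -1.07 ± 0.40 (limma, adjusted p = 0.0342), as was Tuba1a, at -0.21 ± 0.08 (limma, adjusted p = 0.0339). These last calls were near the threshold. For Tubb2b the adjusted p in limma was 0.0901 with the mean of its probes and 0.0637 without mice 7 and 29 (difference -0.95). It was also above the threshold without any 1 of 6 arrays, which were wild-type replicate 2 of control septa, control vessels and smoke-exposed vessels at 8 months, knockout replicate 1 of control vessels at 8 months, and knockout replicates 3 of control and 5 of smoke-exposed vessels at 3 months (0.05 to 0.0691). For Tuba1a the adjusted p was 0.0889 with mouse as a fixed factor, 0.0864 after another quantile normalization and 0.0584 without a trend in eBayes. Without any 1 of 7 arrays, namely knockout vessel replicates 4 (control, 3 months), 3 (control, 8 months), 1 (smoke, 3 months) and 1 (smoke, 8 months), wild-type vessel replicates 3 (control, 3 months) and 4 (smoke, 8 months) and wild-type control septa replicate 2 at 3 months, it was 0.0516 to 0.074. Tuba1b differed by -0.07 ± 0.06 (adjusted p = 0.43) and Tubb5 by 0.21 ± 0.09 (adjusted p = 0.0964, or 0.0349 after another quantile normalization). Tubb2a and Tubb2b thus went one way between tissues and Tubb3 and Tubb6 the other, while the levels of Tuba1b, 13.42 ± 0.28 in vessels and 13.47 ± 0.34 in septa (SD), differed by less than the spread between arrays.

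The arrays set against each other for smoke are those whose values over time chose the genes, so the smoke differences of the 8 genes are descriptions with no test. The share of all genes past adjustment for smoke against control was 0.00483% in vessels at 8 months and 0% in vessels at 3 months and in septa at either time (limma), and nothing is read from it for the tubulins. In septa at 8 months, Tubb2a in smoke-exposed knockout mice was 11.20, 10.96, 12.10, 10.97 and 11.70, against 10.51, 9.99, 10.19, 9.12 and 10.50 in control knockout mice. In wild-type mice it was 11.39, 10.76, 10.03, 11.20 and 11.43 with smoke, against 10.85, 10.51, 10.97, 10.63 and 9.77 without. All knockout arrays with smoke were above all without, and the wild-type groups overlapped. The share of all genes separated in this way was not counted. Over both genotypes the difference was 0.87 ± 0.21, at 1.33 ± 0.30 in knockout and 0.42 ± 0.30 in wild-type mice. Tuba1b gave 0.32 ± 0.11, Tuba1a 0.25 ± 0.10 and Tubb2b 0.48 ± 0.54. Among these 8-month septa arrays, a female pattern was seen in 4 of 5 knockout arrays with smoke and 0 of 5 without. In wild-type arrays it was seen in 3 of 5 with smoke and 1 of 5 without. Smoke and sex pattern thus largely went together, above all in the knockout arrays.

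In septa at 3 months the smoke differences were 0.00 ± 0.22 for Tubb2a and -0.12 ± 0.11 for Tuba1b. In vessels at 8 months Tubb6 differed by -1.13 ± 0.34 and Tuba1c by -0.48 ± 0.16 with smoke. Tubb2a differed there by -1.04 ± 0.55, opposite in sign to its value in septa. Tubb6 ran from 7.59 through 8.27 to 9.92 with smoke (n = 8), against 8.67, 9.67 and 10.98 in controls (n = 10), and the ranges overlapped. In vessels at 3 months Tuba1b differed by 0.35 ± 0.13 and Tubb2b by 1.34 ± 0.98. Among vessel arrays at 8 months, a female pattern was seen in 6 of 8 with smoke and 2 of 10 without. At 3 months it was seen in 3 of 10 with smoke and 2 of 9 without. Smoke and sex pattern thus largely went together in vessels at 8 months too.

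Genotype, averaged over times and exposures, moved 0 of the 8 genes past adjustment in septa or vessels, with 0% of all genes in either (limma). At an unadjusted p under 0.05 there were 0 of the 8 in septa and 2 in vessels, against 825 and 1007 of all 20710 genes (limma). In septa the knockout minus wild-type difference was within 0.11 of 0 for 6 genes, and 0.27 ± 0.39 for Tubb2b and -0.49 ± 0.28 for Tubb6. In vessels it was -0.51 ± 0.24 for Tubb6 and -0.34 ± 0.15 for Tubb5 (adjusted p = 0.979 for each).

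**Figure D3:**
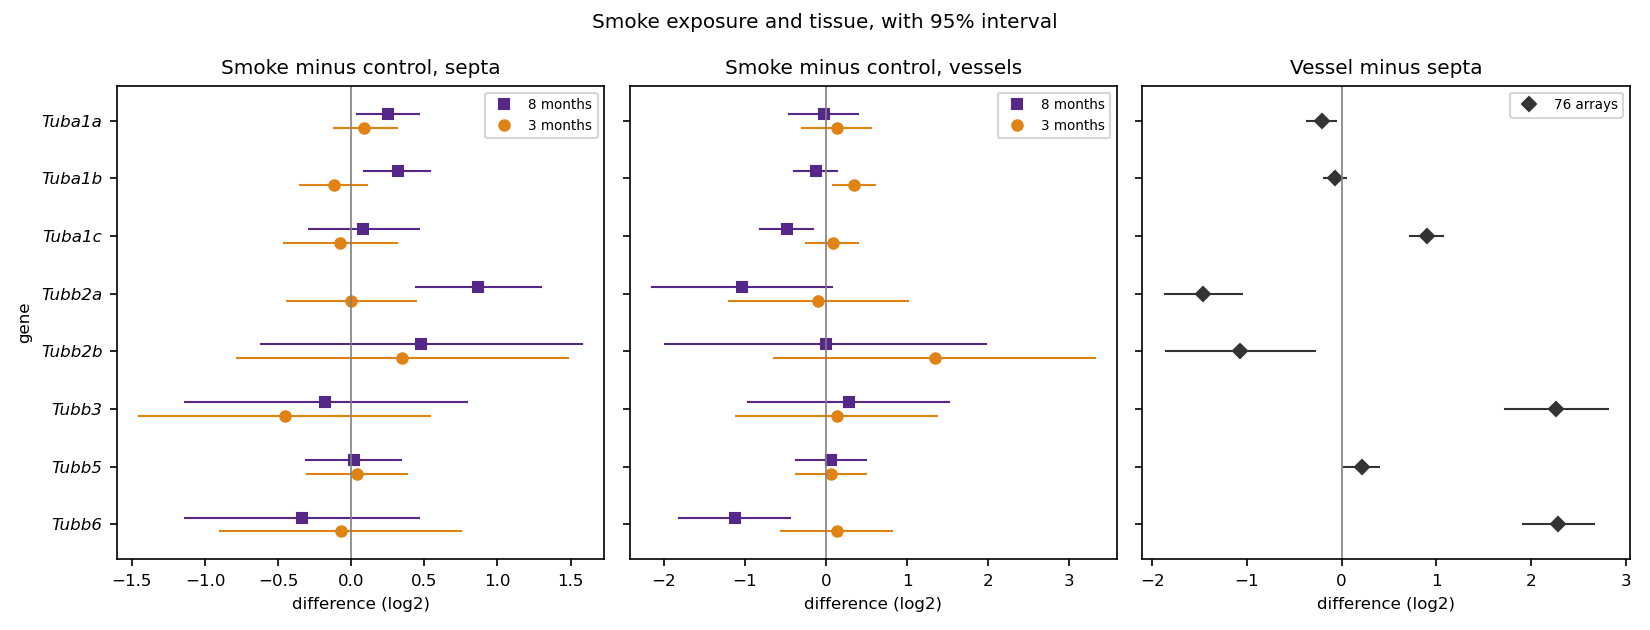
Differences in log2 signal (horizontal axis) with 95% intervals from limma: smoke minus control in septa (left) and vessels (middle) at 8 months (purple squares) and 3 months (orange circles), and vessel minus septa over 76 arrays (right, black). Tubb2a in septa at 8 months has the largest smoke difference there, 0.87, and Tubb6 and Tubb3 are highest in vessels, by 2.29 and 2.26.

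Other genes of the microtubule system were counted from lists of known function. Of 12 other tubulins, 0 passed adjustment over time in smoke-exposed septa (median -0.18) and 0 in control septa (median -0.11), where 0.695% and 0.478% of all genes passed (limma). Tubb4b, a beta-tubulin of cilia and many other cells, differed by -0.49 ± 0.14 in smoke-exposed septa (adjusted p = 0.0778) and by -0.44 ± 0.15 in control septa (adjusted p = 0.176). Tuba4a, an alpha-tubulin that is made already lacking its final tyrosine, differed by -0.27 ± 0.17 in smoke-exposed and 0.20 ± 0.17 in control septa.

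None of the genes that fold, regulate or modify tubulin passed adjustment in septa over time. Of 7 folding cofactors, 5 were above 0 in smoke-exposed septa (median 0.20) and 4 in control septa (median 0.15), among them Tbca, which binds beta-tubulin, at 0.15 ± 0.19 in control septa, and Tbcc, which acts in the last step of dimer assembly, at 0.34 ± 0.36. Of 14 chaperonin and prefoldin genes 8 were above 0 in smoke-exposed septa (median 0.14) and 9 in control septa (median 0.07), where Cct5, a chaperonin subunit, gave 0.25 ± 0.21 and the prefoldin subunit Vbp1 0.03 ± 0.18. Of the 5 genes of tubulin mRNA autoregulation, Ttc5 gave 0.48 ± 0.36 in smoke-exposed and -0.27 ± 0.37 in control septa. Cnot1, the scaffold of the CCR4-NOT deadenylase, gave 0.32 ± 0.23 in smoke-exposed and 0.04 ± 0.24 in control septa. The 20 measured modification enzymes had medians of -0.22 in smoke-exposed and -0.01 in control septa. Among them Vash1, a tubulin carboxypeptidase, gave -0.06 ± 0.10 in smoke-exposed and -0.04 ± 0.10 in control septa, and the tubulin deacetylase Hdac6 gave -0.96 ± 0.43 in smoke-exposed and 1.00 ± 0.44 in control septa.

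Among partners of microtubules, the counts past adjustment were also 0 in both exposures. The 24 measured microtubule-binding proteins had medians of -0.17 in smoke-exposed and -0.28 in control septa, with 17 and 16 below 0. In control septa Stmn1, which sequesters tubulin dimers, gave -0.41 ± 0.15 (limma, adjusted p = 0.267), while Mapt, which encodes tau, gave -0.17 ± 0.17. The 11 genes of the gamma-tubulin ring, which nucleates microtubules, had medians of 0.29 in smoke-exposed and -0.29 in control septa, with the scaffold Pcnt at -0.24 ± 0.23 and the ring subunit Tubgcp4 at -0.88 ± 0.39 in control septa. The 20 motor genes had a median of 0.17 in control septa, with the dynein chains Dynll2 and Dync1i2 at -0.33 ± 0.22 and -0.10 ± 0.17. The 12 actin cytoskeleton genes had a median of 0.12, with Cfl1, which severs actin filaments, at -0.04 ± 0.10 and the actin monomer buffer Tmsb4x at 0.16 ± 0.11. The 15 measured cell division genes had medians of -0.38 in smoke-exposed and -0.10 in control septa. Of these 15 genes, 11 or 12 had a mean no higher than the receptor level at each time and exposure in septa. The medians thus rest mostly on dim genes. The proliferation marker Mki67 differed by -1.06 ± 0.42 in smoke-exposed and -0.25 ± 0.44 in control septa, and Birc5, of the chromosomal passenger complex, by -0.88 ± 0.54 in smoke-exposed and 0.18 ± 0.56 in control septa. At an unadjusted p under 0.05, 2533 of all genes in smoke-exposed septa and 2220 in control septa differed over time.

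Markers of several cell types that septa can hold were set beside these values. In smoke-exposed septa 0 of 7 neutrophil genes passed (median 0.55). In control septa 4 of 7 rose at 8 months, with a list median of 0.98, where 0.478% of all genes passed (limma). They were S100a8 (1.62 ± 0.36, adjusted p = 0.022) and S100a9 (0.98 ± 0.21, adjusted p = 0.0176), calcium-binding proteins of granulocytes, Retnlg (1.63 ± 0.40, adjusted p = 0.0435) and the collagenase Mmp8 (2.61 ± 0.56, adjusted p = 0.0179). The mean over the 7 genes ran from 10.64 through 11.63 to 12.18 at 8 months, against 9.01, 10.51 and 11.60 at 3 months, and none of the 7 was at the receptor level. The count was 0 without replicate 3 of knockout control septa at 3 months, 2 without replicate 2 of the wild-type group, 0 in 1 fit over all 76 arrays and 0 with eBayes without a trend. In vessels the neutrophil list median over time was 1.29 in control and 1.42 in smoke-exposed mice. In each, 6 of the 7 genes were above 0 and 0 passed, where 0.00483% and 0.188% of all genes passed (limma). The 6 erythroid genes had a median of 0.23 in smoke-exposed septa, with 1 below 0. In control septa all 6 were below 0 (median -1.59), with 0 past adjustment and the alpha-globin genes Hba-a1 and Hba-a2 at -1.39 ± 0.47 and -1.17 ± 0.40. Their mean level ran from 6.87 through 8.49 to 10.22 at 8 months against 7.55, 10.64 and 11.51 at 3 months in controls.

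In smoke-exposed septa 2 of 10 alveolar macrophage genes rose, the chitinase-like Chil3 (2.85 ± 0.53, limma adjusted p = 0.00422) and Plet1 (2.46 ± 0.43, adjusted p = 0.00266), with a list median of 1.74. The count was 0 in 1 fit over all 76 arrays and 1 with the mean of all probes. In control septa 0 of 10 passed (median 0.52), with Chil3 at 1.01 ± 0.54 and Car4, also on the capillary list, at -0.12 ± 0.18. The mean over the 10 genes ran from 7.06 through 7.69 to 9.08 at 8 months, against 4.98, 6.09 and 7.88 at 3 months, in smoke-exposed septa, and from 6.08 through 7.04 to 8.62, against 5.32, 6.77 and 7.40, in control septa. The part of neutrophils, erythroid cells and macrophages in the tubulin values was not tested. With sex pattern as a covariate the time difference in control septa was -0.65 for Tuba1b, -0.16 for Tuba1c and 0.01 for Tubb6. In smoke-exposed septa that fit gave 0.13 for Tuba1c, -0.35 for Tubb3 and -0.08 for Tubb6.

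For the remaining cell types 0 genes passed in septa over time. In smoke-exposed septa the list medians lay between -0.56 (smooth muscle) and 0.28 (type 2 pneumocytes). In control septa they were -0.13 for ciliated cells, whose cilia are rich in tubulin, -0.01 for nerve and Schwann cells, 0.01 for fibroblasts and matrix, -0.30 for smooth muscle, -0.10 for capillary endothelium, -0.31 for T and B cells, -0.04 for type 1 and 0.24 for type 2 pneumocytes. At each time and exposure in septa, 6 or 7 of the 10 ciliated cell genes had a mean no higher than the receptor level. So did 5 or 6 of the 8 nerve and Schwann cell genes, and the medians of these lists rest mostly on dim genes. For the genes with the highest signal in each list, control septa gave the following differences. Among epithelial genes, the surfactant genes Sftpc and Sftpa1 differed by 0.15 ± 0.08 and 0.34 ± 0.13, the type 1 pneumocyte genes Clic5 and Aqp5 by 0.06 ± 0.11 and -0.19 ± 0.15, and the ciliary genes Ccdc39 and Tppp3 by 0.63 ± 0.42 and 0.00 ± 0.38. The endothelial genes Cdh5 and Plvap differed by 0.18 ± 0.14 and -0.32 ± 0.16, the matrix genes Sparc and Fn1 by -0.37 ± 0.14 and -0.11 ± 0.19, and the contractile genes Tagln and Mylk by 0.20 ± 0.25 and -0.38 ± 0.28. The lymphocyte genes Cd79a and Nkg7 gave 0.24 ± 0.39 and -0.60 ± 0.28, and the neuronal genes Elavl4 and Snap25 0.01 ± 0.11 and -0.02 ± 0.22.

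**Figure D4:**
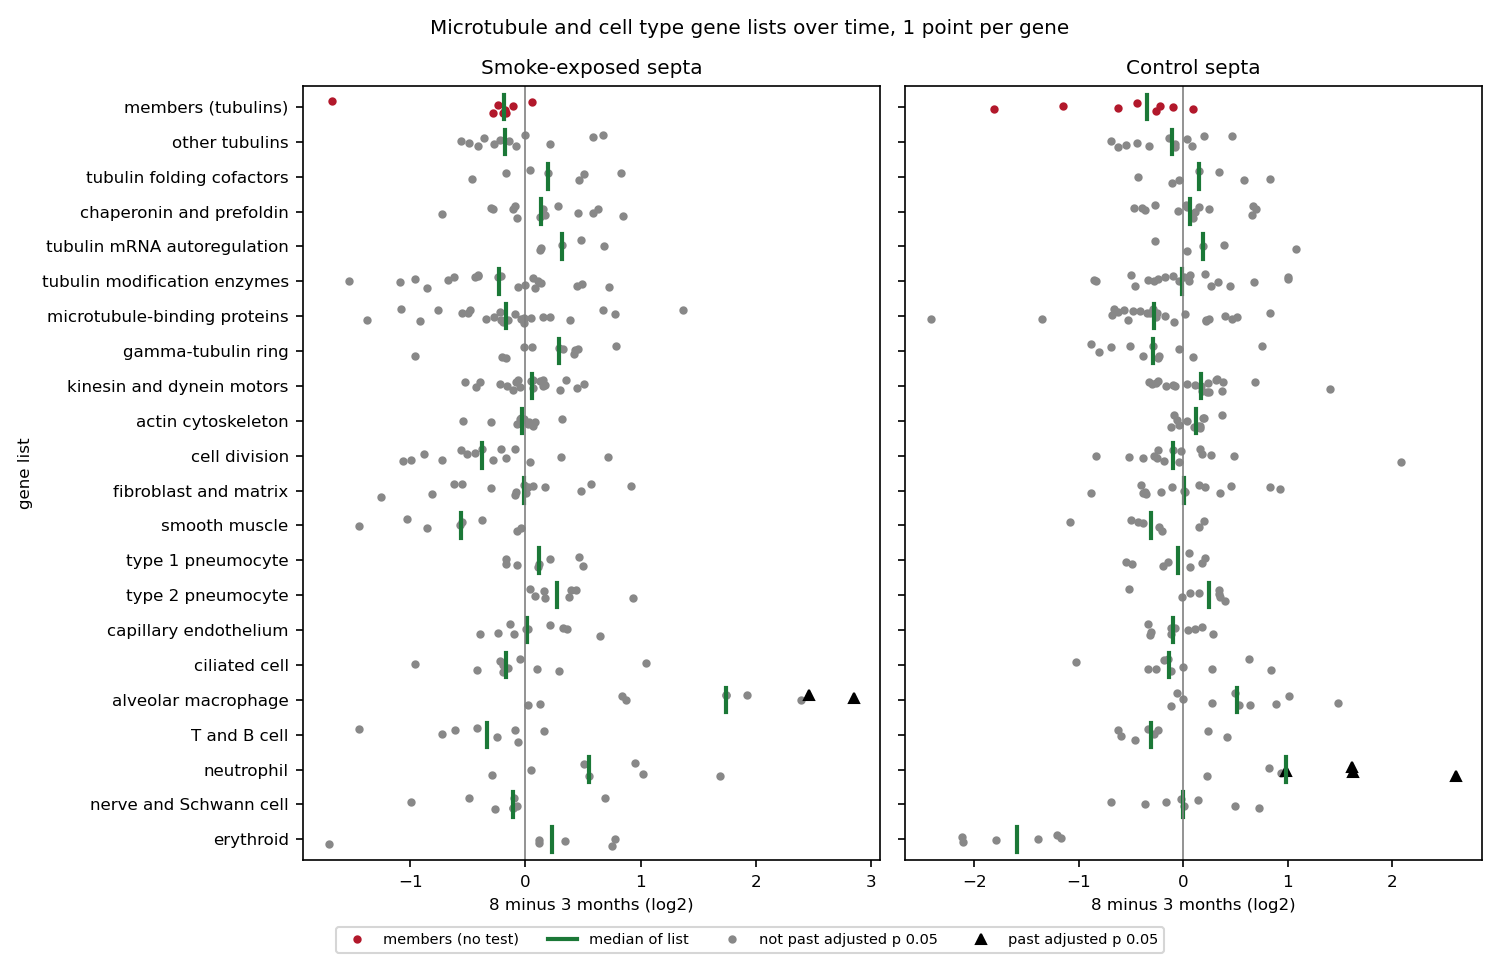
Difference between 8 and 3 months (log2, horizontal axis) in smoke-exposed septa (left) and control septa (right), 1 point per gene, by gene list (vertical axis); red points are the 8 tubulin genes, which were not tested, green bars are list medians, and black triangles passed an adjusted p of 0.05. The only triangles are 2 alveolar macrophage genes with smoke and 4 neutrophil genes in controls.

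Correlations over the 39 septa arrays include the time difference that chose the genes, so those within groups are given beside them. Tuba1b and Tubb2a had a Pearson r of 0.74, or 0.48 within groups, Tuba1b and Tubb2b 0.61 (0.37 within groups), Tuba1a and Tuba1b 0.60 (0.42), and Tubb2a and Tubb2b 0.58 (0.39). Within groups, other pairs had r in the same range or above, with 0.51 for Tubb2b and Tubb3 (0.47 over all arrays), 0.51 for Tubb5 and Tubb6 (0.44) and 0.46 for Tuba1b and Tuba1c (0.40). Tubb6 had r between -0.04 and 0.03 with Tuba1a, Tuba1b, Tuba1c and Tubb2a. In the 36 vessel replicates the strongest pair was Tuba1c and Tubb6 at 0.58 (0.41 within groups), and Tuba1b with Tubb2a had 0.46 (0.54). Within groups the strongest vessel pair was Tuba1c and Tubb3 at 0.63 (0.50 over all replicates). These values describe the arrays, which share their normalisation, groups and amplification, and probes of paralogs may share target RNA.

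**Figure D5:**
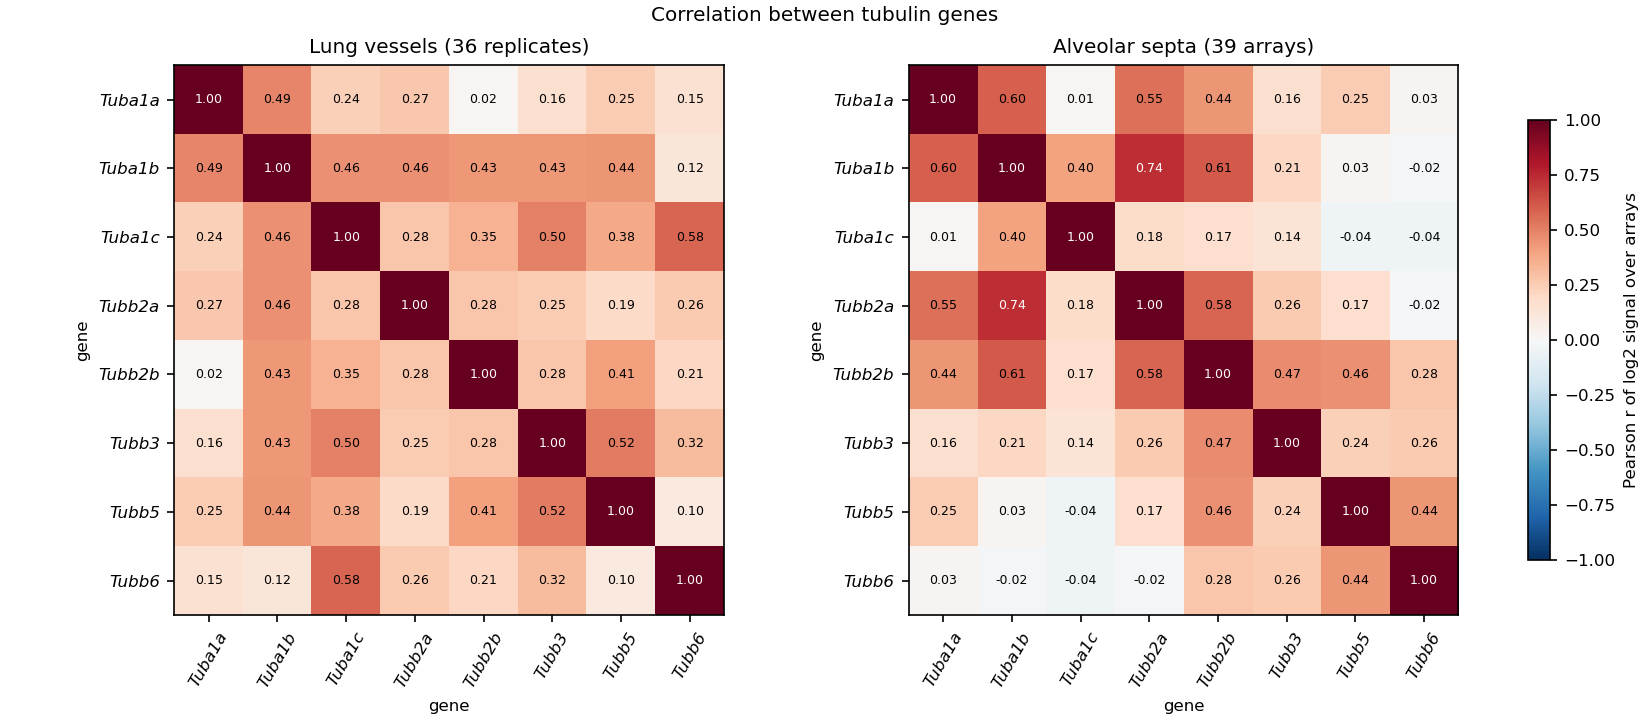
Pearson correlation of log2 signal between the 8 tubulin genes over 36 vessel replicates (left) and 39 septa arrays (right), colour from -1 (blue) to 1 (red), with r written in each cell. In septa Tuba1a, Tuba1b, Tubb2a and Tubb2b have r from 0.44 to 0.74 with each other, time differences included, and Tubb6 is near 0 with the alpha genes.

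Among 10946 other genes above the receptor level in septa, those most like the mean of the 8 standardised tubulins over the 39 arrays were Plxdc2 (r = 0.73), Cxcl14 (0.67), Dtd1 (0.66), Phlda3 (0.64), Gja5, Rcc2 and Stk24 (0.63 each), H2-DMb1 (0.62), and Slc38a5 and Tsc1 (0.61 each). Plxdc2 encodes a plexin-domain membrane protein, Cxcl14 a chemokine, Gja5 the gap junction protein connexin 40 and Tsc1 the mTOR regulator hamartin. These were the highest of many correlations and are given as a description.

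The 3 alpha genes likewise lie next to each other on chromosome 15 with no protein-coding gene between them (RefSeq, GRCm38.p6). RefSeq promoter sequences were matched for 6 of the 8 genes. The 250 bases before the start of transcription are shown for Tuba1b and Tubb2a, the alpha and the beta gene with the smallest errors among those lowest in control septa, as the strand of the gene, from chr15:98934391-98934640 and chr13:34078009-34078258, both on the minus strand. Capitals mark the GC box GGGCGG or its reverse complement CCGCCC and the TATA box TATAAA or its reverse complement TTTATA, and a CCAAT box (CCAAT or ATTGG) was also searched.
Tuba1b: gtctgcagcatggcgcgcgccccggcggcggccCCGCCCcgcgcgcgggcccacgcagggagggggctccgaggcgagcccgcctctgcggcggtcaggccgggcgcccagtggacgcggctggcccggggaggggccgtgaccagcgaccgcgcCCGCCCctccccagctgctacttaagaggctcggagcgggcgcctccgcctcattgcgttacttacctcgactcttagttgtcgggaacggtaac
Tubb2a: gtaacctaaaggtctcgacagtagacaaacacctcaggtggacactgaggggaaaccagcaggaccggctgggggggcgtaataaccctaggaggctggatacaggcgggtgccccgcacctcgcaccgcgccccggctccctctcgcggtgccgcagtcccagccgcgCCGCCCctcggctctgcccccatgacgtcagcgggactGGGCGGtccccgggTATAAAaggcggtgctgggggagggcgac
Each window held 2 GC boxes, which 32.7% of 32851 mouse promoter windows of this length held at least once. Tubb2a had 1 TATA box, found in 12.4% of all windows, and Tuba1b had none. Neither had a CCAAT box, found in 33.8% of all windows, while Tuba1a and Tuba1c had 1 each, Tubb3 had 1 and Tubb5 had 2. No motif overlapped another in the windows shown. The GC content was 75.6% for Tuba1b and 68.4% for Tubb2a, against a median of 52.4%. Matches are letters in a window and say nothing of whether a factor binds.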

How the data were processed

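RNA from microdissected lung was extracted with RNeasy Micro, amplified with Ovation PicoSL WTA V2 and labelled with Cy5, per the labels' protocols. Arrays without signal, 4 in number, had been left out, per the series' design text. The authors deposited log2 values for 62976 features. They are quantile normalized as read from the values, whose quartiles agree to within 0.0024 across arrays. The submitters' processing notes name limma. How background was corrected was not stated there.

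Of 31465 features with a symbol, 29050 were matched by accession to RefSeq and 2933 symbols updated. Features with an empty cell, 671 of all 62976 and 285 of those with a symbol, were left out. The feature with the highest mean stood for each of 20710 genes. limma 3.58.1 (R 4.3.3, package data.table, version 1.17.8) was fitted per tissue with 8 group means, genotypes weighted equally, eBayes with a trend and Benjamini-Hochberg adjustment over all genes at 0.05. Vessel arrays of mouse 25 were averaged. Vessels against septa used 76 arrays and duplicateCorrelation by mouse (consensus 0.026). The scripts were tested on simulated data. Figures used Python 3.11.15 and matplotlib 3.10.9. Nothing says whether replicates were processed on separate days, and the number of arrays limits precision.

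The tubulin genes, lists and tests were chosen with earlier results of these data known. Of each list, genes past adjustment in control septa (up to 4) or else the 2 with the highest mean signal were named. Plet1 was chosen after its values were seen. Alternatives were quantile normalization again, a dim-probe filter at the 25th percentile, the mean of all probes, array weights and no trend. Others were only the groups compared, 1 fit over 76 arrays, a replicate block, mouse as fixed factor and sex pattern as a covariate. Mice 7 and 29 were also left out, as was each array in turn. Leaving out mice 7, 10, 29 and 34 was chosen after seeing the data.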

Additional observations from a re-analysis of the deposited data

Results flagged for a closer look

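Of 64 gene and group combinations tested for 1 array far from the rest of its group, 6 stood out, where chance gives about 1 in 20. Within smoke-exposed septa at 8 months, Tubb2b was 1.28 in wild-type replicate 3, against 5.10 in the next lowest array. Within control vessels at 3 months, Tubb2b was 1.46 in knockout replicate 3, against 4.60 in the next, and Tubb6 was 7.20 in wild-type replicate 3, against 8.84. Within control vessels at 8 months, Tuba1a was 10.82 in knockout replicate 3, against 11.59. Within smoke-exposed vessels, Tuba1c was highest at 11.82 in wild-type replicate 1 at 8 months, against 11.44, and Tubb3 at 10.27 in wild-type replicate 1 at 3 months, against 7.43.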

How the results depend on the processing

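With genotypes pooled, the median time difference of the 8 tubulins kept its sign in all 4 combinations of tissue and exposure under every alternative run. By genotype this did not hold in smoke-exposed septa, at 0.07 in knockout and -0.45 in wild-type mice. The pooled alternatives gave medians between -0.25 and -0.17 in smoke-exposed septa and between -0.38 and -0.22 in control septa. They gave -0.19 to -0.02 in smoke-exposed vessels and 0.22 to 0.35 in control vessels. Leaving out single arrays gave -0.30 to -0.13 in smoke-exposed septa and -0.43 to -0.23 in control septa. Same-numbered replicates did not vary together (mean r 0.012 over 133 pairs in septa, 0.025 over 118 in vessels). The replicate block gave medians of -0.18 in smoke-exposed and -0.31 in control septa, -0.07 in smoke-exposed and 0.23 in control vessels, and changed no call of a tubulin gene. In vessels against septa, 5 or 6 tubulins passed. The number of all genes past adjustment over time was 144 in smoke-exposed septa (18 in 1 fit over 76 arrays, 226 after a dim-probe filter, 80 without wild-type replicate 3 at 3 months) and 99 in control septa (5 in 1 fit over 76 arrays, 29 without knockout replicate 3 at 3 months). It was 39 in smoke-exposed vessels (5 to 428) and 1 in control vessels (0 to 236), and for smoke in vessels at 3 months 0 (25 in 1 fit over 76 arrays). The cause was not tested. Probes near the receptor level, such as Tubb3 in septa, limit what can be seen.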
